A study of Mus musculus with 3 samples.

Results

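The 9 genes described here encode the D-type cyclins (Ccnd1, Ccnd2 and Ccnd3), their partner kinases (Cdk4 and Cdk6), the retinoblastoma protein that these kinases phosphorylate (Rb1) and the MYC family (Myc, Mycn and Mycl). They were chosen by symbol, and each symbol matched 1 entry, so they are 9 of the 27998 gene entries in the count tables. RNA was counted by droplet-based 3′ single-cell sequencing of GFP-positive cells sorted from 3 mouse brain gliomas, tumours 1, 2 and 4 as numbered by the submitters. All 3 carry the genotype H3f3aK27M PdgfraD842V Trp53R270H, which names a changed histone H3.3, a changed growth factor receptor PDGFRA and a changed tumour suppressor p53. They grew in heterozygous reporter mice of a B6.129(Cg) strain that carries the allele Gt(ROSA)26Sortm4(ACTB-tdTomato,-EGFP)Luo, after MADR constructs had been electroporated into the newborn brain. The mice were 150 days old for tumour 1, 106 for tumour 2 and 149 for tumour 4. With 1 group and 1 library per tumour, effects of the tumour, its age and its library cannot be told apart, and no test was made between tumours. Counts of 3′ tags do not read the changed residues, so they do not check the genotype. All tests compare states of cells inside the same tumours, and their p-values measure the spread over these 3, or over fewer where a tumour was left out. The p-values of fits without tumour 2 rest on tumours 1 and 4 alone.

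D-type cyclins bind CDK4 or CDK6, and the active kinases phosphorylate RB1. Phosphorylated RB1 releases E2F transcription factors, whose target genes carry a cell from G1 into S phase. Growth factor receptors such as PDGFRA signal to the D-type cyclins, and MYC proteins, bound to DNA with their partner MAX, drive genes of growth and biosynthesis. Oligodendrocyte progenitor cells (OPCs) divide under PDGFRA signalling and leave the cell cycle as they become committed OPCs and then myelinating oligodendrocytes.

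The tables held 3386, 1632 and 4624 cell barcodes in tumours 1, 2 and 4, with 47120617, 15231673 and 53551127 unique molecular identifiers (UMIs). Libraries shared 6 to 20 barcodes per pair. After filtering, 3361, 1547 and 4377 cells were kept, of which 3149, 1051 and 4295 lay in clusters of neural cells, with a median of 11913, 8130 and 9490 UMIs. OPC-like clusters held 64.9% of the kept cells of tumour 1 and 73.1% of tumour 4, but 4.59% of tumour 2, where oligodendrocyte-like clusters held 28.4%. Tumour 2 stood apart, and counts of called genes are given with and without it. The cells sorted for GFP included immune ones: microglia-like clusters held 5.00%, 16.2% and 1.87% of the kept cells. Why they were in the sort was not tested. Levels are given as CPM, the gene's UMIs per 1000000 UMIs, both summed over the cells of a group. Since a 3′ tag count is not scaled by length, levels are compared between samples and cell states and not between genes. Intervals are exact Poisson 95% intervals for levels and exact binomial 95% intervals for shares, and both cover counting error only.

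Levels in neural cells differed widely between the tumours, and the counting intervals of neighbouring tumours overlapped for Mycn and Mycl alone. The highest tumour was at least 2-fold above the lowest for 8 of the 9 genes, where 39.6% of the 10678 genes with a mean of at least 5 CPM did the same. Without tumour 1 this count was 4 (25.8% of all genes), without tumour 2 it was 2 (11.4%) and without tumour 4 it was 7 (32.9%). D-type cyclins and Cdk4 were lowest in tumour 2, Cdk6 stood apart in tumour 1, Mycl in tumour 2 and Rb1 was lowest in tumour 4.

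**Figure D1:**
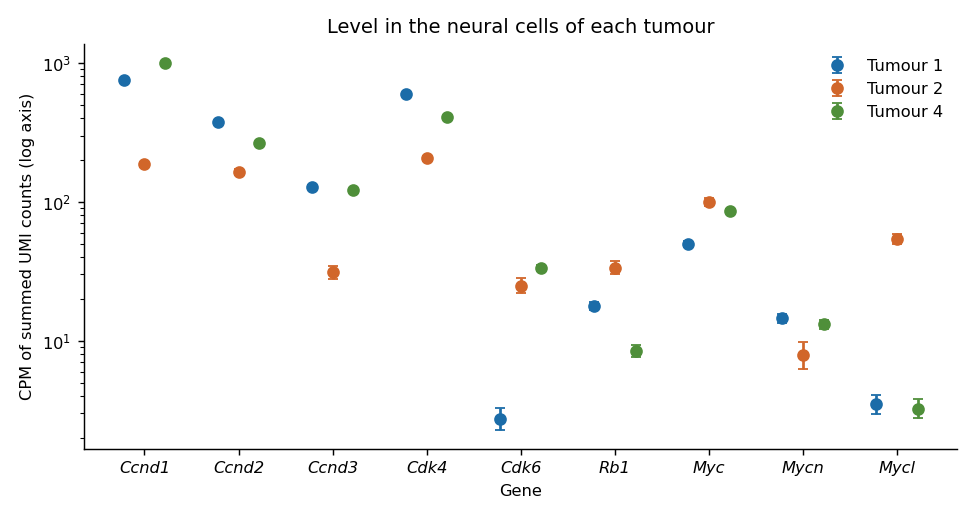
Level of each gene in the neural cells of tumours 1, 2 and 4, in CPM of summed UMI counts on a log axis; points are single tumours and bars are exact Poisson 95% intervals. The 3 cyclins and Cdk4 are lowest in tumour 2, Cdk6 is far lower in tumour 1 than in the others, and Mycl is far higher in tumour 2.

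Ccnd1 (ENSMUSG00000070348, chromosome 7, 144929931 to 144939925, minus strand, mm10), the D-type cyclin most tied to growth factor signalling, had 750.5, 186 and 999 CPM in tumours 1, 2 and 4 (mean 645 ± 417, SD, n = 3). Ccnd2 (ENSMUSG00000000184, chromosome 6, 127125162 to 127152193, minus strand), the D-type cyclin of many neural progenitors, had 378, 163 and 267 CPM (mean 269 ± 107). Ccnd3 (ENSMUSG00000034165, chromosome 17, 47505051 to 47599691, plus strand), known for its part in lymphocyte proliferation, had 128, 31.1 and 121 CPM (mean 93.3 ± 54.0). All 3 cyclins were lowest in tumour 2, and no interval of a cyclin overlapped between tumours. The gap was narrower among OPC-like clusters alone (chosen after seeing the data), where the highest tumour was 3.31-fold above the lowest for Ccnd1, 2.10-fold for Ccnd2 and 1.62-fold for Ccnd3, against 5.39-fold, 2.31-fold and 4.11-fold over all neural cells.

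Shares of cells with a UMI were set beside the shares in microglia-like clusters of each library. With every cell thinned to 2000 UMIs, which left out no neural cell, Ccnd1 was detected in 69.1% of neural cells of tumour 1, 23.4% of tumour 2 and 76.3% of tumour 4 (97.0%, 48.2% and 96.0% before thinning). Microglia-like cells of the same libraries gave 45.2%, 12.4% and 48.8% (86.3%, 31.9% and 82.9% before thinning), at a median of 13157.5, 7263 and 8920 UMIs. The intervals of neural and microglia-like cells did not overlap in any tumour, yet the microglia-like shares were far from 0, and what part of them was free RNA was not tested. After thinning, 50.1%, 25.6% and 39.4% of neural cells with a Ccnd1 UMI also had a Ccnd2 UMI in tumours 1, 2 and 4, against 43.3%, 15.7% and 31.3% of those without one.

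Cdk4 (ENSMUSG00000006728, chromosome 10, 127063534 to 127067920, plus strand) had 594, 205 and 408 CPM (mean 403 ± 195). Its closest relative Cdk6 (ENSMUSG00000040274, chromosome 5, 3341485 to 3531008, plus strand) had 2.73 (interval 2.26 to 3.27), 24.9 (22.1 to 28.1) and 33.3 CPM (31.7 to 34.9). Cdk6 was thus 12.2-fold higher in tumour 4 and 9.14-fold higher in tumour 2 than in tumour 1. After thinning, 0.667%, 4.66% and 6.87% of neural cells of tumours 1, 2 and 4 had a Cdk6 UMI (3.37%, 13.9% and 24.8% before thinning). Microglia-like cells gave 2.38%, 4.38% and 13.4% (15.5%, 14.7% and 26.8% before thinning). The intervals of the thinned shares of neural and microglia-like cells overlapped in each tumour. By level, microglia-like cells of tumour 1 had 13.2 CPM (9.32 to 18.2), above the interval of its neural cells. Those of tumours 2 and 4 had 22.5 CPM (16.2 to 30.6) and 35.4 CPM (24.4 to 49.8), overlapping neural cells. Within neural cells of tumour 2 the level was not uniform, with 76.1 CPM (53.3 to 105) in the OPC-like cluster and 7.44 CPM (3.84 to 12.99) in the committed OPC-like cluster.

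The gap of Cdk6 between tumours 4 and 1 was far wider than that of the genes around it. The 9 expressed genes whose start lies within 1000 kb of that of Cdk6 had a median ratio of 1.16, tumour 4 over tumour 1, with a range of 0.921 to 2.18. Over all tumours, 3 of these 9 were at least 2-fold apart. In tumours 1, 2 and 4, Mterf1a had 3.12, 12.8 and 6.79 CPM, Cyp51 24.1, 76.2 and 27.1 CPM, and Ankib1 20.7, 48.4 and 21.1 CPM. All 3 were lowest in tumour 1. Inside tumour 1, no neural cluster exceeded 9.72 CPM, which was in a cluster of 266 cells led by Hspb1 and interferon response genes. The OPC-like clusters of tumour 1 lay between 1.18 and 6.92 CPM.

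The promoters of the 2 kinases are shown because MYC family proteins bind the E-box CACGTG, and because the kinases differed so much in how they varied between tumours. Both windows (RefSeq, GRCm38.p6, plus strand) run from 250 bases before to 50 bases after the annotated start, which counts as 0; capitals mark the E-box CACGTG, a palindrome, and the E2F-like string TTTNNCGC, searched on both strands. RefSeq promoter windows matched 5 of the 9 genes. The windows are Cdk4 at chr10:127063285-127063584 and Cdk6 at chr5:3343643-3343942. The annotated start is that of RefSeq, while the gene spans above are those of GENCODE. The Cdk6 window lies wholly inside its gene span above, after the start of that span. Positions below are counted from the RefSeq start.
Cdk4: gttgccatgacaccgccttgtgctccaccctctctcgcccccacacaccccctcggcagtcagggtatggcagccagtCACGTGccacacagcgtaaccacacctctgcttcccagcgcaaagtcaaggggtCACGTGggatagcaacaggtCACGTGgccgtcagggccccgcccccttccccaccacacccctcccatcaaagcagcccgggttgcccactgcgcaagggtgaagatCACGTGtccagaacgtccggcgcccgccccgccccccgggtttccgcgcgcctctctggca
Cdk6: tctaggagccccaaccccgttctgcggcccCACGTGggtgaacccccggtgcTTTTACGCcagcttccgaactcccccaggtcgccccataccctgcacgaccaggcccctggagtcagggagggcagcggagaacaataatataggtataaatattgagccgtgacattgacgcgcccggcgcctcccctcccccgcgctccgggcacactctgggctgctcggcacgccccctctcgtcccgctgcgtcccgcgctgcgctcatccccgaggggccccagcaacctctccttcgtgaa
The Cdk4 window held 4 E-boxes, with first bases at -172, -118, -98 and -11, and no E2F-like string. The Cdk6 window held 1 E-box at -220 and 1 E2F-like string at -198, and the motifs did not overlap. At least 1 E-box stood in 7.15% and at least 1 E2F-like string in 5.17% of all 32851 RefSeq promoter windows of this length. These are matches of letters, not measured sites.

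Rb1 (ENSMUSG00000022105, chromosome 14, 73183673 to 73325822, minus strand), the brake that the D-type cyclin kinases release, had 17.8, 33.5 and 8.44 CPM in tumours 1, 2 and 4 (mean 19.9 ± 12.7). It was lowest in tumour 4, at 0.475 times the level of tumour 1 and 0.251 times that of tumour 2. The same order held in non-cycling neural cells alone, with 11.4, 30.8 and 7.16 CPM, and in OPC-like clusters alone, with 19.8, 44.4 and 8.38 CPM. After thinning, 3.59%, 5.80% and 1.61% of neural cells had an Rb1 UMI (19.5%, 25.5% and 9.27% before thinning). Microglia-like cells gave 2.98%, 3.19% and 3.66% (28.0%, 9.96% and 14.6% before thinning), and the intervals of the thinned shares overlapped in each tumour. By level, microglia-like cells of tumour 2 had 15.4 CPM (10.2 to 22.2), below its neural cells (30.2 to 37.2 CPM). The level intervals of the 2 cell kinds overlapped in tumours 1 and 4.

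The neighbours of Rb1 were lower in tumour 4 as well. Each of the 6 expressed genes with a start within 1000 kb was lower in tumour 4 than in tumour 1, with a median ratio of 0.480 and a range of 0.384 to 0.828. For Med4, a Mediator subunit, the values were 14.3 CPM in tumour 4 and 33.7 CPM in tumour 1. For Sucla2, a mitochondrial enzyme of the citric acid cycle, they were 23.3 CPM in tumour 4 and 60.7 CPM in tumour 1. The pattern reached well beyond these genes: over all 335 expressed genes of chromosome 14 the median ratio was 0.623, tumour 4 over tumour 1, and over the 48 genes in the 10 Mb that hold Rb1 it was 0.542. The medians of the chromosomes other than 12, 14 and 16 ran from 0.957 to 1.08. Over chromosome 14 the median was 0.631 in non-cycling neural cells and 0.767 in microglia-like cells (56 genes of at least 50 CPM), where the other chromosomes ran from 0.984 to 1.23. DNA was not measured, and what part the chromosome's level had in that of Rb1 was not tested.

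**Figure D2:**
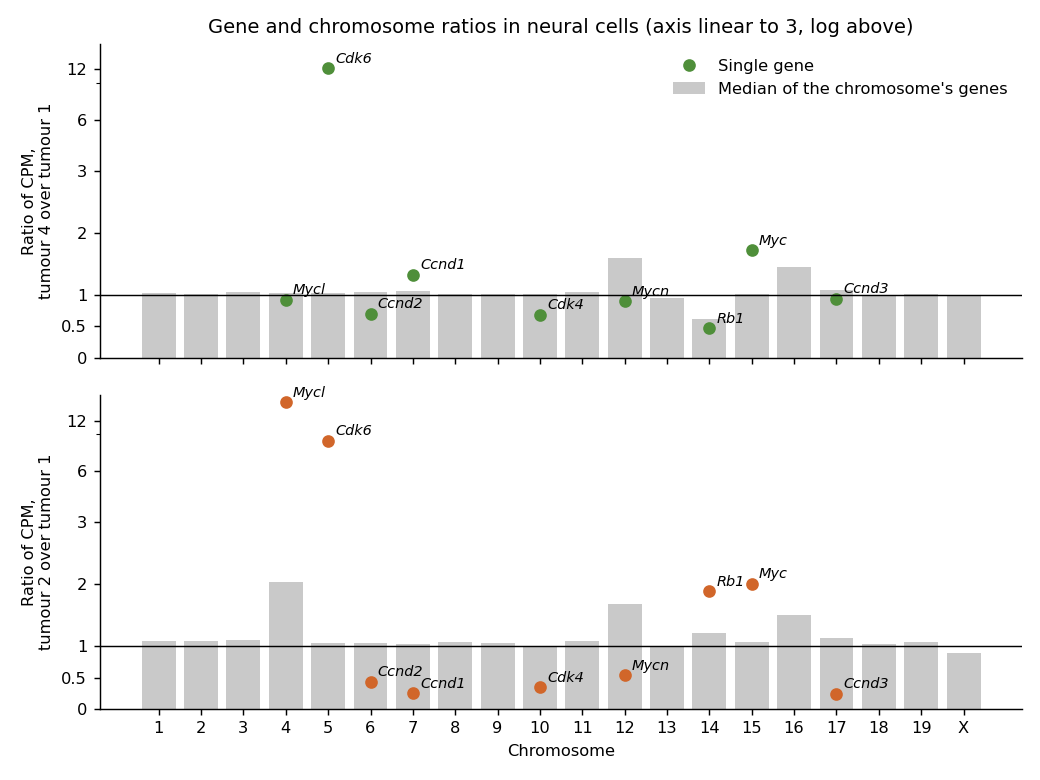
Ratio of CPM in neural cells, tumour 4 over tumour 1 (top) and tumour 2 over tumour 1 (bottom), as the median over the expressed genes of each chromosome (bars) and for each of the 9 genes (points); the axis is linear to 3 and logarithmic above. Chromosome 14, with Rb1, has a median of 0.623 in tumour 4 over tumour 1, and chromosome 4, with Mycl, has a median of 2.03 in tumour 2 over tumour 1, while the chromosome of Cdk6 lies at 1.04 and 1.06.

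Among the MYC family, Myc (ENSMUSG00000022346, chromosome 15, 61985391 to 61990374, plus strand) had 49.7, 99.6 and 85.6 CPM (mean 78.3 ± 25.8). After thinning, 10.0%, 16.6% and 16.2% of neural cells had a Myc UMI (43.7%, 39.8% and 54.4% before thinning). Microglia-like cells gave 4.76%, 6.37% and 7.32% (33.9%, 14.3% and 30.5%), and the intervals of the thinned shares overlapped in tumours 1 and 4. By level, microglia-like cells had 31.8 (25.6 to 39.2), 27.5 (20.4 to 36.2) and 45.1 CPM (32.5 to 61.0), below neural cells without overlap in each tumour. Mycn (ENSMUSG00000037169, chromosome 12, 12936093 to 12941914, minus strand), the family member of embryonic neural progenitors, had 14.5, 7.85 and 13.2 CPM, and the intervals of tumours 1 and 4 overlapped. Mycl (ENSMUSG00000028654, chromosome 4, 122995652 to 123002485, plus strand) had 3.49, 53.8 and 3.25 CPM, with overlapping intervals in tumours 1 and 4. Mycl was therefore 15.4-fold higher in tumour 2 than in tumour 1. After thinning, 10.7% of neural cells of tumour 2 had a Mycl UMI, beside 0.699% in tumour 1 and 0.698% in tumour 4 (25.4%, 4.41% and 3.33% before thinning). Of the thinned microglia-like cells 0 of 168, 0 of 251 and 0 of 82 did in tumours 1, 2 and 4, which by a floor of 3 counts allows shares with a UMI at that depth of up to 1.79%, 1.20% and 3.66%. Before thinning 2.38%, 0.797% and 1.22% of them had a Mycl UMI.

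In tumour 2 the genes of chromosome 4 were higher as a whole. The median ratio over 612 expressed genes was 2.03, tumour 2 over tumour 1, and 1.97 over the 80 genes in the 10 Mb that hold Mycl. For Mycl itself the ratio was 15.4. Of the 11 expressed genes with a start within 1000 kb of that of Mycl, 8 were at least 2-fold apart between the highest and lowest tumour. They ranged widely: Cap1 had 6.95 CPM in tumour 1 and 57.8 CPM in tumour 2, and Mfsd2a 2.39 and 15.3 CPM. Pabpc4 had 29.5 and 31.0 CPM, and Ppie 23.9 and 28.4 CPM. Chromosomes other than 4, 12, 14 and 16 had medians from 0.903 to 1.14 in the same comparison. The start of Mycn lies in a stretch of chromosome 12 whose 17 expressed genes had medians of 0.866, tumour 4 over tumour 1, and 0.901, tumour 2 over tumour 1.

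The windows of Mycn (chr12:12941787-12942086, minus strand) and Mycl (chr4:122995681-122995980, plus strand) are shown because these paralogues went opposite ways between tumours 2 and 1; the build, window and capitals are as above.
Mycn: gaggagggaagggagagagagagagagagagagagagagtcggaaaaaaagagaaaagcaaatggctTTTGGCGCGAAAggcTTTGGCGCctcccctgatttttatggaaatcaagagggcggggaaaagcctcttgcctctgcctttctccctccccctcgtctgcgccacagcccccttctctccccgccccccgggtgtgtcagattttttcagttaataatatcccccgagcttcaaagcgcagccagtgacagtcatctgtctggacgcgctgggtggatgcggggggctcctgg
Mycl: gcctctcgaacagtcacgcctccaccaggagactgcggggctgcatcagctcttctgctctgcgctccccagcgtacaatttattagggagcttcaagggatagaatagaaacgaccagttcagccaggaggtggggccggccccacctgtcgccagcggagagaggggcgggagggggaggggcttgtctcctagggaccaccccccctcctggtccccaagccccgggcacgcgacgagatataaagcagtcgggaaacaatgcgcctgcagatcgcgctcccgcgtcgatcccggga
The Mycn window held 3 E2F-like strings, with first bases at -183, -179 and -168, of which the first 2 overlap on opposite strands, and no E-box. The Mycl window held neither string, which says only that these letters are not in the window. That window lies wholly inside the gene span given for Mycl above, after the start of that span. The Mycn window spans the start of the Mycn span.

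The next question was in which cells the genes were expressed. Named classes are clusters whose markers passed a rule whose limits followed a look at marker levels, and clusters were built without the 9 genes and without cycle genes. Mycl was highest in committed OPC-like cells, a cluster of 177 cells of tumour 2 led by Bmp4 and Fyn among others, with 214 CPM (192 to 238), against 44.4 CPM in OPC-like cells and 10.3 CPM in oligodendrocyte-like cells of tumour 2. An unnamed cluster of 83 cells in tumour 2, whose leading genes held Gpr17, a receptor of committed OPCs, had 189 CPM. Ccnd2 was highest in neuroblast-like cells of tumour 2 (41 cells), with 1966 CPM (1804 to 2139), against 53.3 CPM in committed OPC-like and 28.7 CPM in oligodendrocyte-like cells. In tumour 1 its peak was 1238 CPM, in a cluster of 44 cells that mixed astrocyte genes such as Aqp4 and Gfap with vascular ones such as Cldn5 and Rgs5.

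Among the other genes, Ccnd1 in tumour 4 had 1013 CPM in OPC-like, 706 CPM in oligodendrocyte-like and 509 CPM in microglia-like clusters. Cdk4 in tumour 2 had 414 CPM in neuroblast-like and 364 CPM in committed OPC-like cells, against 144 CPM in oligodendrocyte-like and 49.5 CPM in microglia-like cells. Myc in tumour 2 had 209.6 CPM in unnamed neural and 199 CPM in OPC-like clusters, against 59.2 CPM in oligodendrocyte-like clusters. Outside the neural cells of tumour 2, the 15 mural-like cells had 515 CPM of Myc (368 to 702), and the 22 T or NK-like cells had 184 CPM of Cdk6 (121 to 268). Rb1 lay between 8.38 and 9.67 CPM in the named neural classes of tumour 4 and between 24.8 and 44.4 CPM in those of tumour 2.

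**Figure D3:**
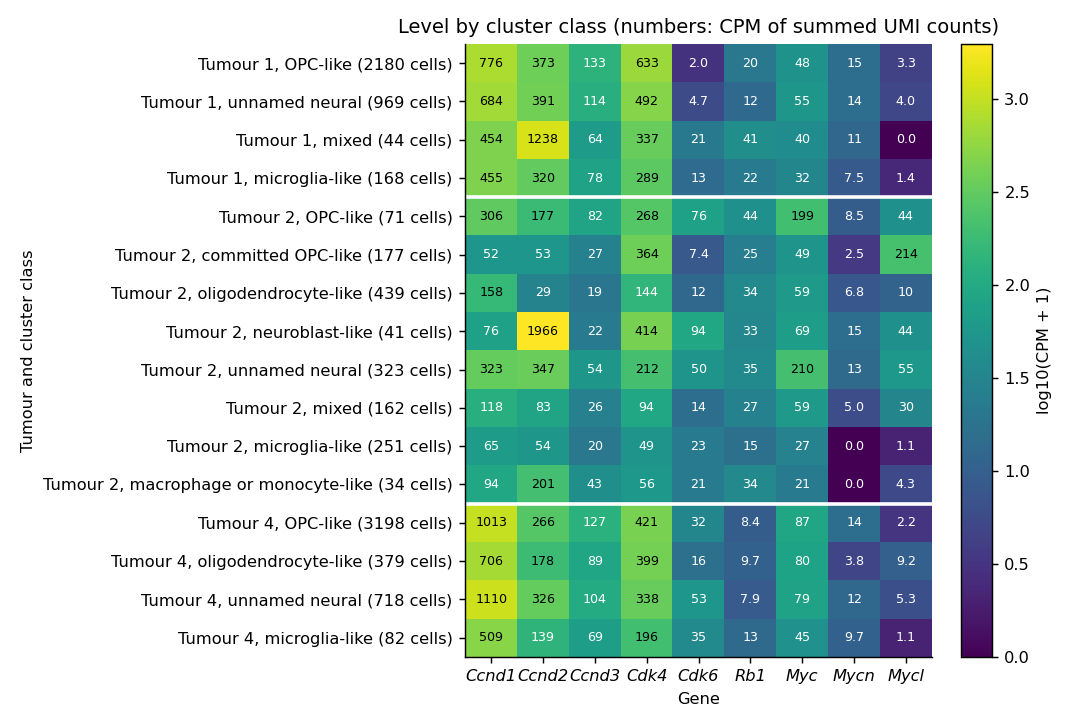
Level of each gene (columns) in each class of clusters with at least 30 cells (rows, by tumour); numbers are CPM of summed UMI counts and the colour is log10(CPM + 1). Mycl peaks at 214 CPM in committed OPC-like cells and Ccnd2 at 1966 CPM in neuroblast-like cells, both of tumour 2, and Cdk6 is low in all neural rows of tumour 1.

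Only tumour 2 had a cluster named committed OPC-like, so the level of Mycl was also read from single cells of every tumour (chosen after seeing the data). Non-cycling neural cells were binned by their UMIs of 8 committed OPC markers (Gpr17, Bmp4, Enpp6, Bcas1, Tcf7l2, Itpr2, Sirt2 and Fyn) after thinning to 2000 UMIs, and bins with under 10 cells were left out. In tumour 1 Mycl had 3.61 CPM (2.47 to 5.09) in the 737 cells with at most 1 such UMI and 4.91 CPM (2.61 to 8.39) with 2 to 4. It had 34.3 CPM (13.8 to 70.7) in the 16 cells with 5 to 9, where it had 7 UMIs. In tumour 2 it had 19.96 CPM (12.8 to 29.7) with at most 1 and less, 8.90 CPM (5.44 to 13.7), with 2 to 4. It then had 30.8 CPM (22.6 to 41.1) with 5 to 9 and 177 CPM (158 to 196) with 10 or more. In tumour 4 it had 3.35 CPM (2.31 to 4.70) with at most 1, 6.66 CPM (3.54 to 11.4) with 5 to 9 and 51.7 CPM (30.1 to 82.8) with 10 or more. The top bin was the highest in each tumour, and its interval did not overlap that of the lowest bin. Cells with 10 or more such UMIs were few in the other tumours, with under 10 in tumour 1 and 27 in tumour 4, against 208 in tumour 2. The top bin of tumour 1 was thus that of 5 to 9, with 16 cells, where tumour 2 had 126.

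Ccnd1 and Ccnd2 went the other way over the same bins. From the lowest to the highest bin, Ccnd1 had 693, 677 and 348 CPM in tumour 1, 304, 165, 111 and 69.8 CPM in tumour 2, and 983, 949, 790.2 and 362 CPM in tumour 4. Ccnd2 had 473, 442 and 368 CPM in tumour 1, 386, 115, 42.2 and 36.7 CPM in tumour 2, and 333, 303, 222 and 128 CPM in tumour 4. Each of the 2 cyclins was lowest in the top bin of every tumour, though not always beyond counting error. For Ccnd2 in tumour 1 the top interval (289 to 461 CPM) overlapped both lower ones (417 to 468 and 459 to 488). In tumour 2 its top interval (28.7 to 46.3 CPM) overlapped that of the bin below (32.4 to 54.0). Cdk4 did not share this pattern, with 555, 532 and 519 CPM in tumour 1, 168, 146, 164 and 302 CPM in tumour 2, and 348, 379.9, 411 and 465 CPM in tumour 4. Cdk6 had 51.6, 19.6, 7.37 and 1.55 CPM in tumour 2, and 42.4, 37.4, 26.1 and 9.12 CPM in tumour 4.

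**Figure D4:**
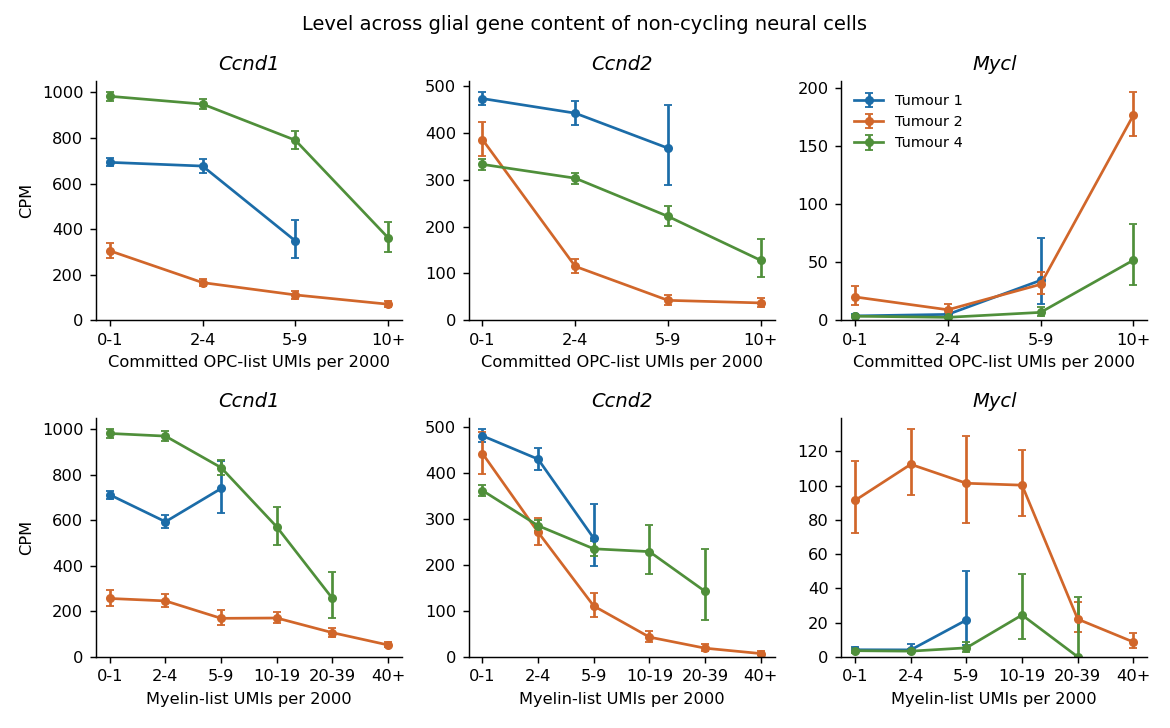
CPM of Ccnd1, Ccnd2 and Mycl in non-cycling neural cells binned by their UMIs of committed OPC markers (top) or of myelin genes (bottom) per 2000 UMIs, with exact Poisson 95% intervals; bins with under 10 cells are left out. Mycl is highest in the top committed OPC bin of each tumour, while Ccnd1 and Ccnd2 are lowest there.

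The second question was whether the genes changed with the cell cycle. Cells were called cycling with at least 5 UMIs of 74 S and G2/M genes, none of them among the 9, and non-cycling with at most 1. Cycling cells made up 38.2%, 11.6% and 28.3% of neural cells in tumours 1, 2 and 4. Of the 9 genes, 0 changed between cycling and non-cycling cells at an adjusted p under 0.05 (edgeR's quasi-likelihood test, tumour as a block, n = 3 pairs), where 3.22% of 13621 genes did, 413 higher and 26 lower. At an unadjusted p under 0.05 there were 3, Ccnd3, Rb1 and Mycl (18.6% of all genes), and DESeq2 called 1, Mycl, among 555 genes higher and 168 lower. The median log2 change of the 9 was 0.29, against -0.05 for all genes tested.

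**Figure D5:**
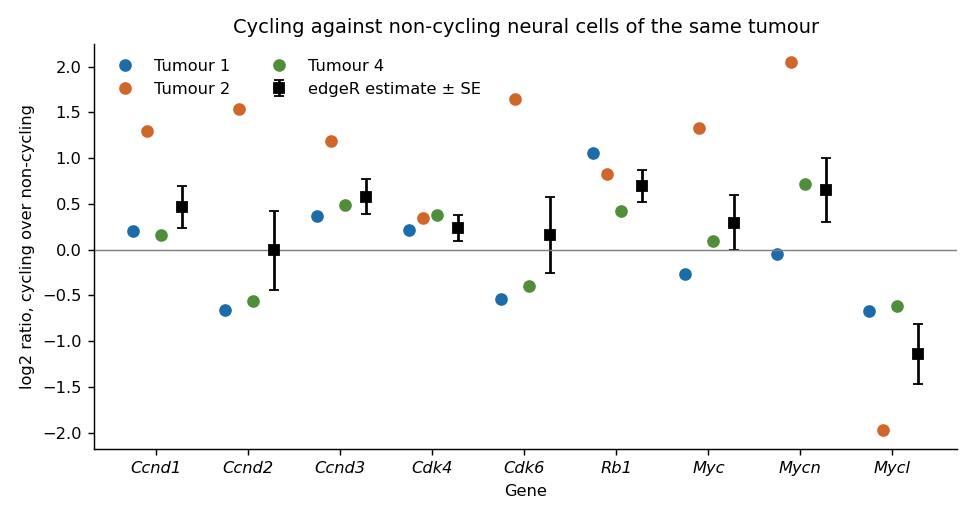
Log2 ratio of CPM in cycling over non-cycling neural cells for each gene, as single tumours (circles) and as the edgeR estimate with its standard error (squares). Ccnd2 and Cdk6 are higher in cycling cells of tumour 2 and lower in those of tumours 1 and 4, whereas Ccnd3, Rb1 and Cdk4 are higher and Mycl is lower in cycling cells of all 3 tumours.

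Tumour 2 set itself apart in this comparison too. Ccnd2 had 293, 361 and 208 CPM in cycling cells of tumours 1, 2 and 4, against 464, 124 and 307 CPM in non-cycling cells. It was thus lower in cycling cells of tumours 1 and 4 and higher in those of tumour 2, and the log2 change over all 3 was -0.01 ± 0.43 (SE, edgeR adjusted p = 0.997). Without tumour 2, 28.2% of 13797 genes were called, and Ccnd2 fell by 0.62 on the log2 scale (SE 0.08, edgeR adjusted p = 6.2e-08). In OPC-like clusters alone, where 18.8% of 13608 genes were called, it fell by 0.77 (adjusted p = 2.4e-08). That fit rests on tumours 1 and 4, since 1 cycling cell of tumour 2 lay in an OPC-like cluster.

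The 2 states of tumour 2 also differed in cell class. Of its 686 non-cycling cells, 44.8% lay in oligodendrocyte-like and 19.97% in committed OPC-like clusters. Of its 102 cells in G2/M these clusters held 25.5% and 1.96%, and unnamed clusters held 69.6%. In tumours 1 and 4, OPC-like clusters held 95.1% and 94.1% of G2/M cells, and 55.2% and 64.9% of non-cycling cells. Depth moved with the state as well, with medians of 14442.5, 8758 and 10802 UMIs in cycling cells of tumours 1, 2 and 4, and 11186.5, 7951.5 and 9000 in non-cycling cells. The summed immune markers per 2000 UMIs were 0.535, 2.05 and 0.384 in G2/M cells of tumours 1, 2 and 4, and 0.465, 1.71 and 0.503 in non-cycling cells. What part class, depth or these markers had in these differences was not tested.

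The members that kept their direction in all tumours were Ccnd1, Ccnd3, Cdk4, Rb1 and Mycl. Ccnd3 had 145, 58.6 and 149 CPM in cycling cells of tumours 1, 2 and 4, against 112, 25.7 and 106 CPM in non-cycling cells, a log2 change of 0.58 ± 0.19 (edgeR adjusted p = 0.20). Rb1 had 23.7, 54.8 and 9.58 CPM in cycling cells, against 11.4, 30.8 and 7.16 CPM in non-cycling cells, a change of 0.70 ± 0.17 (adjusted p = 0.12). Each of these pairs was higher in cycling cells, though neither gene passed the threshold over all genes. Cdk4 was higher in cycling cells by 0.21, 0.34 and 0.38 on the log2 scale in tumours 1, 2 and 4 (edgeR estimate 0.24 ± 0.14, adjusted p = 0.42), and Ccnd1 by 0.21, 1.295 and 0.16 (0.47 ± 0.23, adjusted p = 0.33). Without tumour 2, Ccnd3 rose by 0.42 (edgeR adjusted p = 0.00030), Rb1 by 0.75 (5.0e-05) and Cdk4 by 0.29 (0.0045), and Cdk6 fell by 0.42 (0.016) and Mycl by 0.65 (0.022). With Ccnd2 these made 6 of the 9, where 28.2% of all genes were called. In OPC-like clusters alone the called members were Ccnd2, Ccnd3 (0.38, edgeR adjusted p = 0.0078) and Rb1 (0.81, 0.00050). Cdk6 had 2.22, 54.8 and 29.0 CPM in cycling cells of tumours 1, 2 and 4, against 3.23, 17.5 and 38.3 CPM in non-cycling cells. Myc had 42.7, 190.2 and 88.0 CPM in cycling cells, against 51.5, 75.6 and 82.7 CPM in non-cycling cells. Mycn had 14.4, 22.8 and 17.2 CPM in cycling cells, against 14.9, 5.53 and 10.5 CPM in non-cycling cells. Changes of these 3 genes were thus wider in tumour 2 than in the others, and 0 of the 3 passed over all 3 tumours (adjusted p = 0.87, 0.62 and 0.37).

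Ccnd1 took 54.3%, 59.6% and 65.8% of the UMIs of the 3 D-type cyclins in non-cycling, S-phase and G2/M cells of tumour 1, and 69.5%, 72.6% and 75.5% in tumour 4, while Ccnd2 took 36.9%, 28.7% and 22.4% in tumour 1, and 22.7%, 17.9% and 13.7% in tumour 4. The share of Ccnd1 thus grew and that of Ccnd2 shrank over the 3 states, and no intervals overlapped between neighbouring states of these 2 tumours. Tumour 2 differed, with 50.1%, 26.9% and 58.5% for Ccnd1 and 41.4%, 68.9% and 32.2% for Ccnd2. Its S-phase sum comprised 20 cells, of which 2 lay in the neuroblast-like cluster, and Ccnd2 had 1202 CPM in the whole sum.

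S-phase cells held 0 changed members against non-cycling cells, where 3.55% of 13042 genes were called by edgeR (428 higher, 35 lower). At an unadjusted p under 0.05 there were 4, Ccnd3, Cdk4, Rb1 and Mycl (15.3% of all genes). DESeq2 called 0 members, where it called 4.84% of 12533 genes. Without tumour 2, 4 members were called in S phase, where 16.8% of 13519 genes were: Ccnd2 fell by 0.34, and Cdk4, Rb1 and Ccnd3 rose by 0.37, 0.61 and 0.36. In OPC-like clusters alone, where 10.8% of 12749 genes were called, Ccnd2 fell by 0.44 (edgeR adjusted p = 0.0020) and Ccnd3 rose by 0.35 (0.023). Cdk4 had 549, 661 and 629 CPM in non-cycling, S and G2/M cells of tumour 1, 197, 346 and 231 CPM in tumour 2, and 369, 538 and 460.3 CPM in tumour 4, so it was highest in S phase in each tumour, with intervals of S and G2/M that overlapped in tumour 1 alone. G2/M cells, compared with the same non-cycling sums, held 2 changed members, where 8.07% of 13042 genes were called, 697 higher (5.34%) and 355 lower (2.72%). DESeq2 called the same 2 members, with 759 genes higher and 650 lower. At an unadjusted p under 0.05 there were 4 members (25% of all genes). Rb1 had 24.2, 52.1 and 9.92 CPM in G2/M cells of tumours 1, 2 and 4, against 11.4, 30.8 and 7.16 CPM in non-cycling cells, and rose by 0.70 ± 0.18 (edgeR adjusted p = 0.037). Mycl had 2.55, 15.5 and 2.5003 CPM in G2/M cells, against 4.42, 62.8 and 4.01 CPM in non-cycling cells, and fell by 1.24 (SE 0.29, adjusted p = 0.029). Both genes moved in the same direction in all 3 tumours, though not always beyond counting error. In all cycling cells, of which G2/M cells are a part, Mycl intervals overlapped those of non-cycling cells in tumours 1 and 4. Rb1 intervals did so in tumour 4. Without tumour 2, 7 members were called in G2/M, all but Myc and Mycn, where 30.7% of 13519 genes were. Rb1 lost the call without tumour 1 (0.52) and without tumour 4 (0.84), Mycl without tumour 4 (-1.52), and Mycl had a change of -0.39 (adjusted p = 0.40) in OPC-like clusters alone, where Ccnd2, Rb1 and Ccnd3 were called among 22.3% of 12749 genes. G2/M against S held 0 changed members by edgeR, where 0.192% of 13042 genes were called, 25 higher and 0 lower. At an unadjusted p under 0.05 there was 1, Ccnd2 (6.43% of all genes), and DESeq2 called 0 members, with 82 genes higher and 13 lower. Ccnd2 had 272, 193 and 192 CPM in G2/M cells of tumours 1, 2 and 4, against 365, 1202 and 259 CPM in S phase (-1.31 ± 0.56, edgeR adjusted p = 0.75). Without tumour 2 it fell by 0.41 (adjusted p = 9.7e-05), where 5.55% of 13519 genes were called, and in OPC-like clusters alone by 0.44 (edgeR adjusted p = 0.0060), where 2.77% of 12749 were.

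Other genes of the pathway were read from lists. Of 18 genes of the RB and E2F module, 6 rose in cycling cells and 0 fell, where 3.22% of all genes were called (median log2 change 0.95, against -0.05 for all genes). The cycle genes that defined cycling cells include Ccne2 and E2f8, close relatives of genes in this module. A rise of the module in cells picked this way was therefore partly fixed by the choice. E2f1, the founding activator E2F, had 30.1, 35.8 and 25.5 CPM in cycling cells of tumours 1, 2 and 4, against 5.62, 3.93 and 3.05 CPM in non-cycling cells, a rise of 2.78 ± 0.21 (edgeR adjusted p = 0.0038). The repressor E2f7 rose by 2.98 ± 0.29 (0.0057), Cdk2, the kinase that acts after CDK4 and CDK6, by 2.40 ± 0.18 (0.0038), and Rbl1, which encodes the RB1 relative p107, by 1.98 ± 0.18 (0.0052). E2f7, Cdk2 and Rbl1 were likewise higher in cycling cells of all 3 tumours. In S-phase cells, where 3.55% of all genes were called, 8 of the 18 rose, among them Ccne1, the cyclin partner of CDK2, by 2.70 ± 0.21 (edgeR adjusted p = 0.00012). In G2/M cells, where 8.07% were called, 9 of the 18 rose, and 0 fell in either phase. Without tumour 2, where 28.2%, 16.8% and 30.7% of all genes were called in cycling, S-phase and G2/M cells, 12 rose and 0 fell in cycling cells, 11 rose and 1, Ccng1, fell in S phase, and 12 rose and 0 fell in G2/M. Between G2/M and S phase 0 of the 18 were called by edgeR, where 0.192% of all genes were. At an unadjusted p under 0.05 there were 6 (6.43% of all genes), and DESeq2 called 4 (0.774% of 12279 genes). Without tumour 2, where 5.55% of all genes were called in that comparison, 3 of them (Ccng1, Ccng2 and E2f5) were higher and 4 (Ccne1, Cdk2, E2f1 and E2f6) lower in G2/M.

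Of the 7 CDK inhibitors, 2 rose and 0 fell in cycling cells, where 3.22% of all genes were called. Here too the cells were picked by their cycle genes. Changes in inhibitors, MYC network genes or MYC targets that move with those genes are therefore not independent of the choice. Without tumour 2, Cdkn1a, Cdkn2c and Cdkn2d rose and Cdkn1c, Cdkn2a and Cdkn2b fell in cycling and in G2/M cells (28.2% and 30.7% of all genes called), and the same genes but Cdkn1a did so in S phase (16.8%). Cdkn2c, which encodes the CDK4 and CDK6 inhibitor p18, had 89.5, 258 and 65.2 CPM in cycling cells of tumours 1, 2 and 4, against 35.9, 28.8 and 14.9 CPM in non-cycling cells, a rise of 2.11 ± 0.34 (edgeR adjusted p = 0.034). In S phase 0 of the 7 inhibitors were called by edgeR, where 3.55% of all genes were. At an unadjusted p under 0.05 there were 4 (15.3% of all genes), and DESeq2 called 2 (4.84% of 12533 genes). The relative of Cdkn2c, Cdkn2d, which encodes p19, rose by 1.13 ± 0.17 in cycling cells (edgeR adjusted p = 0.026). Cdkn1c, which encodes p57, an inhibitor linked to cell cycle exit, fell by 1.29 in G2/M cells (SE 0.29, edgeR adjusted p = 0.022). Of the 9 genes of the MYC network, 2 were called in cycling cells, where 3.22% of all genes were. Mxd3 rose by 3.27 ± 0.37 (edgeR adjusted p = 0.0093) and Mxd4 fell by 1.02 (SE 0.16, adjusted p = 0.028). Both encode MAX partners that oppose MYC at E-boxes. Among 15 MYC targets 0 were called in cycling cells by edgeR (median 0.23). At an unadjusted p under 0.05 there were 4 (18.6% of all genes), and DESeq2 called 1 (5.31% of all genes). Without tumour 2, 7 of the 15 rose and 0 fell in each of cycling, S-phase and G2/M cells, where 28.2%, 16.8% and 30.7% of all genes were called in either direction. Mxd3 and Mxd4 were also the called genes of the MYC network in S-phase and G2/M cells, with and without tumour 2. In S-phase cells Nop56, a nucleolar protein of ribosome assembly, rose by 0.86 ± 0.17 (edgeR adjusted p = 0.020), and in G2/M cells Nop56 rose by 0.68 and Odc1, an enzyme of polyamine synthesis, by 0.80 (adjusted p = 0.032 and 0.031).

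The third question was whether the genes changed with glial state. Among non-cycling neural cells, myelin-high cells had at least 5 UMIs of 12 myelin genes per 2000, and progenitor-like cells had at least 3 UMIs of 9 OPC genes and at most 1 of the myelin and astrocyte genes. These are ranges of a score, not cell types: myelin-high cells numbered 22, 404 and 322 in tumours 1, 2 and 4, and progenitor-like cells 202, 52 and 200. Of the 9 genes, 0 changed by edgeR, where 0.631% of 10461 genes were called, 64 higher and 2 lower. At an unadjusted p under 0.05 there were 2, Ccnd2 and Cdk6 (13% of all genes). DESeq2 called 1 member, Ccnd2, where it called 1.92% of 9039 genes, 158 higher and 16 lower. With no filter on low counts, where 4.02% of 17906 genes were called, edgeR called 2 members lower, Cdk6 (-1.89, adjusted p = 0.00017) and Ccnd2 (-1.35, 4.2e-06). The median log2 change of the 9 was -0.57, against -0.04 for all genes tested.

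Ccnd2 had 261, 32.1 and 227 CPM in myelin-high cells of tumours 1, 2 and 4, against 469, 177 and 421 CPM in progenitor-like cells. It was lower in myelin-high cells of each tumour, with a log2 change of -1.36 ± 0.30 (edgeR adjusted p = 0.12, DESeq2 adjusted p = 0.018). Without tumour 2, where 4.87% of 10524 genes were called, it fell by 0.93 (SE 0.16, edgeR adjusted p = 4.9e-07) and was the only member called. Ccnd1 had 678, 108 and 782 CPM in myelin-high cells, against 749.9, 179 and 961 CPM in progenitor-like cells, a change of -0.39 ± 0.20 (adjusted p = 0.44). Cdk6 had 3.72, 3.73 and 27.4 CPM in myelin-high cells, against 1.64, 64.7 and 47.6 CPM in progenitor-like cells. Mycl had 18.6, 45.4 and 6.65 CPM in myelin-high cells, against 2.87, 177 and 3.85 CPM in progenitor-like cells. Cdk6 was thus lower in myelin-high cells of tumours 2 and 4, without overlap of the intervals, while tumour 1 held 1 UMI (interval 0.094 to 20.7 CPM) against 4 UMIs (0.448 to 4.21 CPM), too few for a direction. Mycl was lower in myelin-high cells of tumour 2 and higher in those of tumour 1, where it had 5 UMIs against 7, and its intervals overlapped in tumour 4. Tumour 2 differed from the others in the makeup of these states: oligodendrocyte-like clusters held 71.8% of its myelin-high cells, against 40.4% in tumour 4, and tumour 1 had no cluster of that name. Its committed OPC-like cluster held 23.0% of them. Of its progenitor-like cells, OPC-like clusters held 36.5%, the committed OPC-like cluster 9.62% and unnamed clusters 51.9%. In tumours 1 and 4, OPC-like clusters held 64.4% and 74.0% of progenitor-like cells. The part of this makeup in the levels was not tested. Median depth was 11491, 9918.5 and 9305.5 UMIs in myelin-high cells, and 11073, 6136 and 7959.5 in progenitor-like cells, and its part in these values was not tested.

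Finer bins of the myelin score show where the levels changed. In tumour 2 Mycl had 91.4, 112, 101 and 100.3 CPM in cells with 0 to 1, 2 to 4, 5 to 9 and 10 to 19 myelin UMIs, then 22.0 CPM with 20 to 39 and 8.65 CPM with 40 or more. In tumour 4 it had 3.57, 3.29 and 5.23 CPM in the lowest 3 bins and 24.4 CPM (10.5 to 48.1) in the 36 cells with 10 to 19. The 11 cells of tumour 4 with 20 to 39 had 0 Mycl UMIs, which by a floor of 3 counts allows up to 28.5 CPM. In tumour 1 it had 4.11 and 4.04 CPM in the lowest 2 bins and 21.5 CPM (6.98 to 50.2) in the 19 cells with 5 to 9. Ccnd2 in tumour 2 had 443, 271, 111, 42.9, 18.8 and 7.03 CPM over the 6 bins, and in tumour 4 it had 362, 285, 235, 229 and 142 CPM over the first 5. Cdk4 had 247, 225, 266 and 237 CPM in tumour 2 up to 19 UMIs, and 153 and 139 CPM above. Among pathway genes Cdkn1c was called, with and without tumour 2, and 0 of 12 RB and E2F genes, 0 of 9 MYC network genes and 0 of 15 MYC targets were by edgeR, with 0 of these at an unadjusted p under 0.05, 0 called by DESeq2 and 0 called by edgeR without tumour 2. Cdkn1c had 127, 299.5 and 68.1 CPM in myelin-high cells of tumours 1, 2 and 4, against 11.1, 109 and 11.54 CPM in progenitor-like cells, a rise of 2.42 ± 0.35 (edgeR adjusted p = 0.023). Astrocyte-high cells numbered 2, 14 and 14, too few for a test. In those of tumours 2 and 4 Ccnd2 had 629 CPM (496 to 786) and 617 CPM (485 to 773).

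The genes with the most similar profile were sought over the 14 sums of a tumour and a class with at least 30 cells, which share libraries and depth, so the values are descriptions. Ccnd1 was closest to Col18a1, Vim and Krtcap2 (Pearson's r of log2(CPM + 1) 0.958, 0.953 and 0.951), of which Vim encodes an intermediate filament of glial progenitors. Ccnd2 was closest to Sh3bgrl, Tbl1x and Hn1 (0.957, 0.925 and 0.919), and Ccnd3 to Rpsa, Tub and Megf11 (0.943, 0.935 and 0.931). Cdk4 was closest to Tubb2b, Nme1 and Bzw2 (0.986, 0.981 and 0.981), of which Nme1 is on the list of MYC targets. Cdk6 was closest to Tiparp and the immediate early genes Fos and Jund (0.905, 0.833 and 0.827). Rb1 was closest to Cdk11b, Wapl and Mier1 (0.896, 0.870 and 0.863), which lie on chromosomes 4, 14 and 4. Myc was closest to Spry2, Epha5 and Polr2f (0.928, 0.922 and 0.915), of which Spry2 encodes a feedback inhibitor of receptor tyrosine kinase signalling. Hnrnpl and Clcn6 were among the genes closest to Mycl (0.939 and 0.930), and Mycn had too low a mean for this comparison, 8.66 CPM.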

How the data were processed

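RNA of sorted cells from 3 tumours was counted as UMIs per gene and cell, 1 library per tumour. The deposited counts were made by the authors with Cell Ranger 1.3.0 and STAR 2.5.1 on mm10, per the submitters' processing notes; how cell barcodes were picked is not stated there. Their normalised table was not used, and the WPRE transgene entry (0.0348% to 0.0839% of UMIs) was left out. Cells with under 500 genes (0, 3 and 0 in tumours 1, 2 and 4) or over 20% mitochondrial UMIs (25, 82 and 247) were removed; no doublet caller was run, and leaving out the highest 5% of UMIs was an alternative. Cells were clustered per tumour with scanpy 1.11.5 (2000 variable genes, 30 components, 15 neighbours, Leiden resolution 1), without the 9 genes and cycle genes. A cluster was named from fixed markers with a score of at least 2 and at least 3 markers at 20 CPM, limits set after marker levels had been seen. Cell states were read from cells thinned to 2000 UMIs, and the unthinned counts were summed per tumour and state. These sums were tested with edgeR 4.0.16 (R 4.3.3, TMM, quasi-likelihood, Benjamini-Hochberg over all genes tested), with the tumour as a block because both states come from the same animal. The scripts were checked on simulated counts. Alternatives included DESeq2 1.42.0, RLE scaling, no filter on low counts, no block and leaving out each tumour. Genes were located with GENCODE vM21 on GRCm38, the same assembly as mm10. All 9 genes were named, with up to 4 called genes of each pathway list that moved the same way in every tumour. The genes, lists and rules were chosen with earlier results of these data known, and OPC-like clusters alone, the committed OPC bins and the chromosome medians were added after seeing the data. One gene of the profile comparison is not reported here.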

Additional observations from a re-analysis of the deposited data

How the results depend on the processing

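The setting of OPC-like clusters alone also leaves out nearly all cycling cells of tumour 2. For cycling cells, 439 genes were called, against 2565 in OPC-like clusters alone, 699 with no filter on low counts, 723 with DESeq2 and 336 to 3891 on leaving out each tumour. For S phase the count was 463, against 242 with phase lists 2 times apart, 1380 in OPC-like clusters alone and 183 to 2268 on leaving out each tumour. For G2/M it was 1052, against 2843 in OPC-like clusters alone, 1605 with no filter on low counts and 414 to 4152 on leaving out each tumour. For G2/M against S it was 25, against 53 without the highest 5% of UMIs, 0 with 10 UMIs for cycling, 38 with phase lists 2 times apart, 353 in OPC-like clusters alone, 15 with RLE scaling, 119 with no filter, 95 with DESeq2 and 0 to 750 on leaving out each tumour. For myelin-high cells it was 66, against 112 without the highest 5% of UMIs, 302 with 8 UMIs for the state, 10 without committed OPC-like cells, 719 with no filter, 174 with DESeq2 and 0 to 513 on leaving out each tumour. Without the tumour as a block, which pairs states of the same animal, these counts were 93, 106, 195, 0 and 0, and Rb1 and Mycl lost their calls in G2/M (Mycl -2.13). Members at least 2-fold apart numbered 2 to 7 on leaving out each tumour.

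Of 566 member results under alternatives, 485 kept direction and side of the threshold, 26 newly passed in the same direction, 8 no longer passed and 47 changed sign, of which 3 also newly passed (Cdk6 in cycling cells and Ccnd2 in S phase without tumour 2, and Ccnd2 in S phase in OPC-like clusters alone). In OPC-like clusters alone, log2 changes of the other sign were Cdk6 -0.37 and Myc -0.13 in cycling cells, Mycl 0.0012, Cdk6 -0.10, Ccnd2 -0.44, Mycn -0.042 and Myc -0.29 in S phase, Myc -0.089 in G2/M, and Ccnd3 0.033 and Ccnd1 0.092 in G2/M against S. With 10 UMIs for cycling they were Ccnd2 -0.39 and Myc -0.037 in S phase, Cdk6 0.015 in G2/M, and Ccnd3 0.17, Ccnd1 0.38 and Rb1 -0.24 in G2/M against S. With phase lists 2 times apart they were Ccnd2 -0.10 in S phase and Ccnd3 0.11 and Ccnd1 0.13 in G2/M against S, and Mycl lost its call in G2/M (-1.14). Thinned to 1000 UMIs, they were Cdk6 0.21 in G2/M and Ccnd3 0.033 and Myc -0.037 in G2/M against S, and Rb1 lost its call in G2/M. Ccnd3 in G2/M against S was 0.014 with no filter on cells, 0.039 without the highest 5% of UMIs and 0.0086 with DESeq2. Without the tumour block, Cdk6 was 0.12 in G2/M, Mycl 0.11 in G2/M against S and Cdk4 0.021 in myelin-high cells, where Mycl was 0.20 with DESeq2. On leaving out each tumour, the ranges that crossed 0 were -0.62 to 0.38 for Ccnd2, -0.42 to 0.55 for Cdk6 and -0.084 to 0.61 for Myc in cycling cells. In S phase they were -0.17 to 1.03 for Cdk6, -0.34 to 1.46 for Ccnd2 and -0.22 to 0.46 for Myc, and in G2/M -0.54 to 0.31 for Cdk6 and -0.057 to 0.58 for Myc. In G2/M against S they were -0.038 to 0.17 for Rb1, -0.19 to 0.064 for Ccnd1 and -0.12 to 0.058 for Ccnd3. In myelin-high cells they were -0.91 to 1.38 for Mycl, -0.21 to 0.19 for Cdk4, -0.078 to 0.58 for Rb1 and -0.74 to 0.067 for Myc. The causes were not tested. The test of astrocyte-high cells was not run, for want of cells, and low counts limit Cdk6 and Mycl in tumour 1 (119 and 152 UMIs in neural cells) and Mycn in tumour 2 (85).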

Other observations

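Chromosomes 12 and 16 also stood apart from the rest in neural cells, without a result of the 9 genes resting on them. Over 371 expressed genes of chromosome 12 the median ratio was 1.60, tumour 4 over tumour 1, and 1.69, tumour 2 over tumour 1. The 6 stretches of 10 Mb from 60 Mb on had medians of 1.78 to 2.13, tumour 4 over tumour 1, and the 6 before them, which include the 1 with Mycn, had 0.866 to 1.09. Over 338 genes of chromosome 16 the medians were 1.46 and 1.51, but the chromosome was not even. Its stretches before 30 Mb had medians of 0.922 to 1.01, tumour 4 over tumour 1. Those with a value from 30 Mb on had 1.78 to 2.12. Within chromosome 14, the stretches from 20 to 80 Mb had medians of 0.515 to 0.574, tumour 4 over tumour 1, except 1.01 for the 28 genes of the stretch from 40 Mb. Its other stretches with a value, those from 10, 100 and 120 Mb, were not lower. They had medians of 1.28, 1.26 and 1.91 over 19, 13 and 12 genes. On chromosome 4 every stretch with a value had a median between 1.73 and 2.37, tumour 2 over tumour 1. In microglia-like cells, which passed the same sort, the median of chromosome 4 was 1.22 in that comparison (130 genes of at least 50 CPM), while their other chromosomes ran from 0.541 to 1.08. These are RNA levels, and DNA was not measured.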
